A study of Mus musculus with 42 samples.

Results

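The D-type cyclins Ccnd1, Ccnd2 and Ccnd3, the E-type cyclins Ccne1 and Ccne2, and the kinases they switch on, Cdk2, Cdk4 and Cdk6, were followed through input RNA and RNA recovered with the GW182 protein Tnrc6a in mouse embryonic stem cells. The 8 genes were taken by symbol, and all 8 were present among the 18825 genes of the table of experiment 1 and the 19866 genes of the table of experiment 2. All 8 also passed the filter on low counts, which left 18772 and 19778 genes. The family was chosen by symbol and Ccnd2 was selected on its measured rise in input RNA of Ago2KO cells, the top rise of that comparison, so values of that comparison are described and not tested.

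The cells were a 129S6/SvEvTac mouse embryonic stem line carrying a GFP_5xT71BS reporter and a stably transfected FLAG-Cas9, both of which every group shared, the untagged control included. They were grown with serum and LIF on gelatin. The untagged line had no further change, the tagged line carried HA-AVI-Tnrc6a, and the 2 knockout lines carried the same tag together with Trim71-/- or Ago2-/-. Each line was grown as triplicate dishes, and lysate RNA (input) and RNA bound to anti-HA beads (immunoprecipitate, IP) were sequenced from each, giving 3 libraries in each of 14 groups. Experiment 1 held untagged, tagged and Trim71KO cells (18 libraries), and experiment 2 held these and Ago2KO cells (24 libraries). The labels do not say how many clones each line is, so a difference between lines cannot be told apart from a difference between clones, and the p-values measure only the spread between dishes.

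Cyclins are the regulatory subunits of cyclin-dependent kinases. D-type cyclins pair with Cdk4 and Cdk6 and E-type cyclins with Cdk2, and the resulting kinases phosphorylate the retinoblastoma family of pocket proteins, which frees E2F factors to transcribe the genes of DNA replication. Embryonic stem cells are known for a short G1 phase. Tnrc6 proteins join Argonaute proteins, which carry microRNAs, to the enzymes that shorten and decap mRNA. Trim71 is an RNA-binding TRIM-NHL protein that represses mRNAs in early embryonic cells.

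MicroRNAs pair with mRNAs mainly through bases 2 to 8, the seed. The sequences below are shown because they are the small RNAs best known in connection with this gene group: the miR-290 and miR-302 clusters of embryonic stem cells, known to act on Cdkn1a and Rbl2 mRNAs, the miR-15/16 family, known to act on Ccnd1, Ccnd3 and Ccne1 mRNAs, and let-7, known to act on Ccnd2 and Cdk6 mRNAs. They are RefSeq mature sequences (GRCm38.p6), 5′ to 3′, with the seed in capitals, and small RNAs were not measured in these libraries.
miR-291a-3p: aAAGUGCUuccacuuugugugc
miR-294-3p: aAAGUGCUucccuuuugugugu
miR-295-3p: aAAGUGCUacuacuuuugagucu
miR-302d-3p: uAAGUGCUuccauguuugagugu
miR-15a-5p: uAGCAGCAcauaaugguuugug
miR-16-5p: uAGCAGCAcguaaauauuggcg
let-7a-5p: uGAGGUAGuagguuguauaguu
The first 4 share the seed AAGUGCU and the next 2 share AGCAGCA. Let-7a has the seed GAGGUAG.

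Library totals ran from 12587257 to 23657840 counts in experiment 1 and from 16296447 to 21026552 in experiment 2. Tnrc6a itself averaged 78.1 and 87.9 CPM (counts scaled to library size) in tagged input and 22950 and 18120 CPM in tagged IP, against 92.4 and 82.4 CPM in untagged IP. Ago2 fell from a mean of 353 CPM in tagged input to 162 CPM in Ago2KO input of experiment 2. Trim71 RNA was not lower in the input libraries labelled Trim71KO (means of 282 CPM against 241 CPM in experiment 1, and 377 CPM against 282 CPM in experiment 2), so its level does not check that label. Of the embryonic stem cell markers, 8 of 8 were present, with a summed input level of 7207 to 9176 CPM. The second tagged input library of experiment 1 stood apart, with Tnrc6a at 57.1 CPM against 81.9 and 95.1 CPM in the other two, and results that change without it are given with their values.

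Before any comparison, input levels differed widely within the family. Compared per kilobase of gene length in tagged input, Cdk4 was the highest of the 8 in both experiments, at 140 ± 13.9 CPM per kb in experiment 1 and 113 ± 3.90 CPM per kb in experiment 2 (SD, n = 3). Ccnd3 and Ccne1 followed at 52.5 ± 1.92 and 53.7 ± 3.18 CPM per kb in experiment 1, where their ranges overlapped, and at 47.3 ± 1.72 and 34.9 ± 0.445 CPM per kb in experiment 2, where they did not. Ccnd1 came next (24.8 ± 2.14 and 19.7 ± 0.0892 CPM per kb), then Cdk2 (10.6 ± 0.513 and 12.2 ± 0.145 CPM per kb). The lowest were Ccne2 (5.16 ± 0.535 and 4.47 ± 0.0474 CPM per kb), Cdk6 (2.63 ± 0.174 and 2.21 ± 0.134 CPM per kb) and Ccnd2 (0.747 ± 0.130 and 0.554 ± 0.0625 CPM per kb). By this measure cyclin D3 was the most abundant D-type cyclin mRNA and cyclin D2 the least. The length is 1 deposited value per gene (3249 bases for Cdk4, 8775 for Ccnd3 and 2662 for Ccne1). It need not be the length of the mRNA expressed, and the order between genes depends on it. In tagged IP the order was different: Ccnd3 (214 ± 25.6 CPM per kb) and Ccne2 (213 ± 29.4 CPM per kb) were the highest in experiment 1, with overlapping ranges, and Cdk4 (114 ± 10.0 CPM per kb) stood below Ccne1 (142 ± 14.3 CPM per kb). In experiment 2 the ranges of Ccnd3 (125 ± 15.7 CPM per kb), Ccne2 (114 ± 34.5 CPM per kb) and Cdk4 (107 ± 4.25 CPM per kb) overlapped. There Cdk4 stood above Ccne1 (64.95 ± 9.96 CPM per kb), without overlap.

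**Figure D1:**
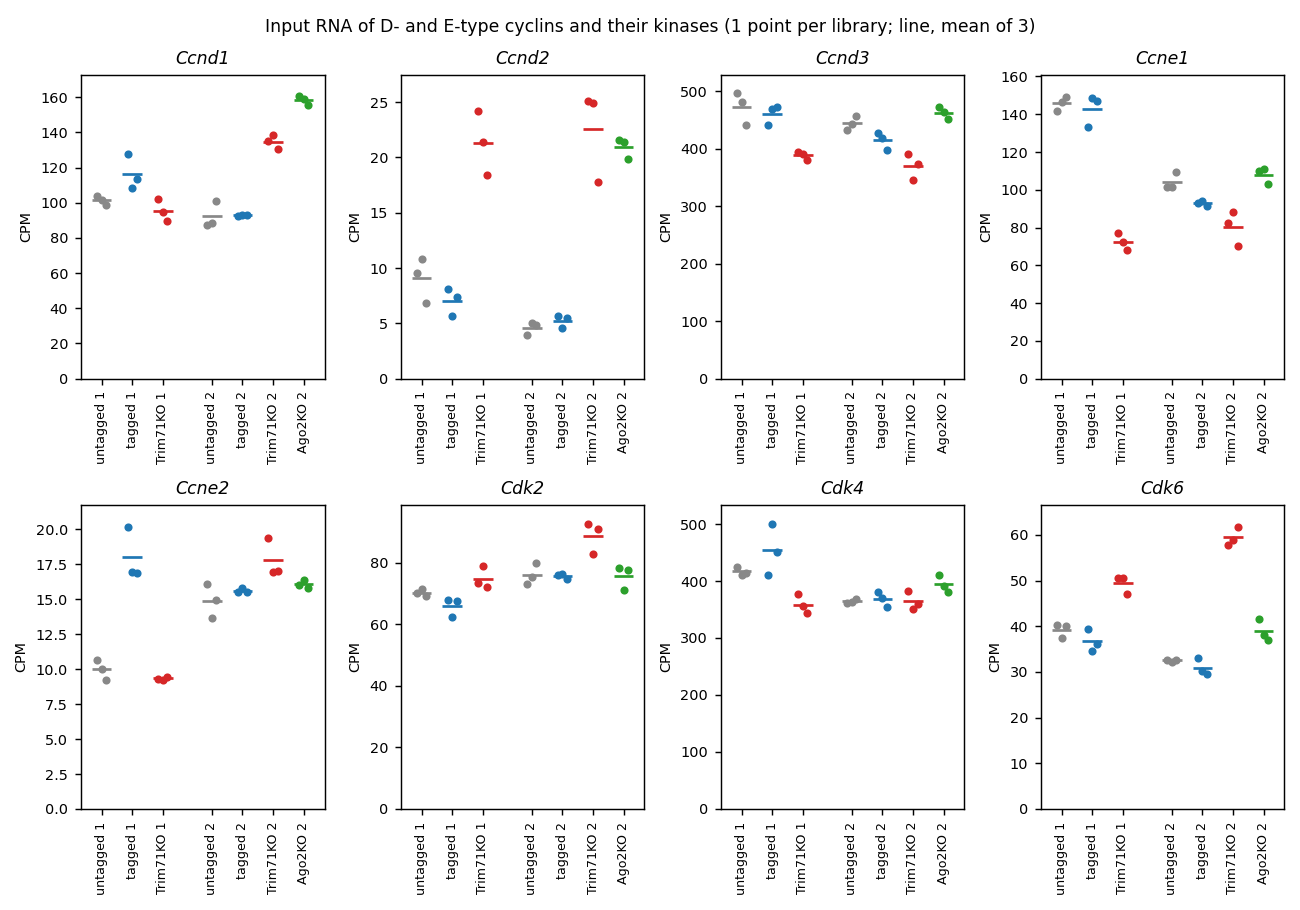
Input RNA of each of the 8 genes in CPM (linear axis from 0), 1 point per library and a line at the mean of 3, for the 3 lines of experiment 1 and the 4 lines of experiment 2. Ccnd2 lies between 3.92 and 10.8 CPM in untagged and tagged cells and between 17.8 and 25.1 CPM in both knockout-labelled lines.

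The gene positions (RefSeq GRCm38.p6) are chromosome 7, 144929931 to 144939831 for Ccnd1, chromosome 6, 127125162 to 127152188 for Ccnd2, and chromosome 17, 47505051 to 47599689 for Ccnd3. Ccne1 lies on chromosome 7, 38097984 to 38107490, and Ccne2 on chromosome 4, 11190433 to 11204779. Cdk2 lies on chromosome 10, 128697938 to 128705051, Cdk4 on chromosome 10, 127063535 to 127067288, and Cdk6 on chromosome 5, 3341004 to 3531008. The values are counts per whole gene, so they do not divide into exons or isoforms. Several spans overlap a neighbour that was also counted: LTO1 shares 818 bases with Ccnd1, Bysl 359 with Ccnd3, Ints8 5622 with Ccne2 and Pmel 7114 with Cdk2. How reads in shared stretches were assigned is not given in the sources used here.

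The first comparison asked which of these mRNAs were recovered with tagged Tnrc6a beyond what anti-HA beads bind without a tag. All 5 cyclin mRNAs and Cdk6 were enriched in experiment 1, Ccne2 by far the most, while Cdk2 and Cdk4 were not. Tag-specific enrichment is the log2 IP to input ratio of tagged cells minus that of untagged cells, tested with edgeR's quasi-likelihood F test and called at an adjusted p (Benjamini-Hochberg over all genes) under 0.05. By this test 6 of 8 genes were enriched and none depleted in experiment 1, where 56.9% of all genes were called, 28.1% higher and 28.8% lower. In experiment 2, 5 of the 7 genes tested were higher and 1 lower, against 18.9% and 8.77% of all genes (27.7% in either direction). The median change was 1.68 over the 8 genes in experiment 1 (all genes −0.10) and 0.84 over the 7 in experiment 2 (all genes −0.03).

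Cyclin E2, a partner of Cdk2, was the most strongly recovered of the 8. In untagged IP of experiment 1 Ccne2 stood at 12.1, 12.3 and 9.12 CPM, and in tagged IP at 777, 630 and 828 CPM. Its tagged input libraries held only 20.2, 16.97 and 16.9 CPM. No tagged IP library came near the range of the other groups. The tag-specific enrichment was 5.21 ± 0.21 (log2 ± SE, edgeR adjusted p = 6.8e-16), a 37.1-fold gain. In experiment 2 the untagged IP held 14.7, 13.4 and 13.4 CPM and the tagged IP 533, 358 and 302 CPM, with tagged input at 15.5, 15.8 and 15.5 CPM. The groups were again fully apart, and the enrichment was 4.78 ± 0.26 (edgeR adjusted p = 7.93e-14), or 27.5-fold. Leaving out any 1 library kept it between 5.12 and 5.33 in experiment 1 and between 4.49 and 4.96 in experiment 2. Ints8, whose span overlaps that of Ccne2, had an enrichment of 0.27 ± 0.12 and 0.35 ± 0.11.

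The other E-type cyclin, Ccne1, was enriched more modestly. Its untagged IP libraries held 156, 162 and 166 CPM and its tagged IP libraries 413, 338 and 381 CPM in experiment 1, from an input of 133, 149 and 147 CPM. All tagged IP values were above all others. The enrichment was 1.25 ± 0.14 (edgeR adjusted p = 4.99e-08) in experiment 1 and 0.84 ± 0.13 (edgeR adjusted p = 9.6e-06) in experiment 2, where tagged IP stood at 200.4, 171 and 148 CPM and tagged input at 93.3, 93.8 and 91.5 CPM. The 2 E-type cyclins, which share the kinase partner Cdk2, thus lay at opposite ends of the enrichments among the cyclins.

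The D-type cyclins, which respond to growth signals and bind Cdk4 and Cdk6, were enriched to nearly equal degrees. Ccnd1 stood at 89.4, 88.8 and 93.8 CPM in untagged IP and 498, 431 and 498 CPM in tagged IP of experiment 1, with tagged input at 128, 108 and 114 CPM. Ccnd3 stood at 453, 428 and 456 CPM in untagged IP and 1777, 1717 and 2132 CPM in tagged IP, with tagged input at 442, 469 and 472 CPM. Ccnd2, the least abundant, stood at 10.1, 5.42 and 7.18 CPM in untagged IP and 24.6, 23.0 and 30.0 CPM in tagged IP, with tagged input at 8.06, 5.68 and 7.36 CPM. For each of the 3 the tagged IP libraries lay above all tagged input and untagged libraries. Enrichments in experiment 1 were 2.19 ± 0.17 for Ccnd1 (edgeR adjusted p = 8.85e-11), 2.15 ± 0.28 for Ccnd2 (edgeR adjusted p = 8.01e-07) and 2.11 ± 0.13 for Ccnd3 (edgeR adjusted p = 1.88e-12). In experiment 2 they were 1.36 ± 0.10 for Ccnd1 (edgeR adjusted p = 4.41e-11) and 1.32 ± 0.11 for Ccnd3 (edgeR adjusted p = 3.61e-10), and Ccnd2, not tested there, had 1.37 ± 0.28. LTO1, which overlaps the end of Ccnd1, had enrichments of 1.91 ± 0.17 and 1.00 ± 0.10, close to those of Ccnd1, and reads of the 2 genes may be shared.

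The kinase mRNAs were recovered least. Cdk2 stood at 71.6, 65.0 and 69.6 CPM in tagged IP and 67.8, 62.2 and 67.6 CPM in tagged input of experiment 1, overlapping ranges, with an enrichment of 0.12 ± 0.11 (edgeR adjusted p = 0.362) and of −0.07 ± 0.08 (edgeR adjusted p = 0.584) in experiment 2. Cdk4 stood at 402, 370 and 337 CPM in tagged IP and at 410, 500.4 and 451 CPM in tagged input of experiment 1, with −0.29 ± 0.13 (edgeR adjusted p = 0.0615). In experiment 2 its value of −0.20 ± 0.08 just passed the threshold (edgeR adjusted p = 0.0492). That call was lost in 8 of the 12 fits that left out a library, with values from −0.23 to −0.18: it held only without the third tagged input, the first or second untagged IP, or the second tagged IP library.

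Cdk6, the second kinase partner of D-type cyclins, differed from both. In experiment 1 its tagged IP libraries held 69.1, 69.6 and 65.7 CPM against 39.4, 34.7 and 36.2 CPM in tagged input and 33.9, 36.2 and 37.1 CPM in untagged IP. Tagged IP lay above every other library of these groups, and the enrichment was 1.03 ± 0.14 (edgeR adjusted p = 9.57e-07). In experiment 2 tagged IP held 37.5, 36.0 and 31.1 CPM and tagged input 33.1, 30.2 and 29.5 CPM, which overlapped, and the enrichment was 0.32 ± 0.10 (edgeR adjusted p = 0.0249). In experiment 2 the fit stopped calling it without the second (0.30) or the third (0.28) tagged input, the first untagged IP (0.26), or the first (0.24) or second (0.29) tagged IP library. Scaling by library size alone, which lowered the median of all genes from −0.03 to −0.24, also ended it, at 0.11, as did a fit of only the groups compared.

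**Figure D2:**
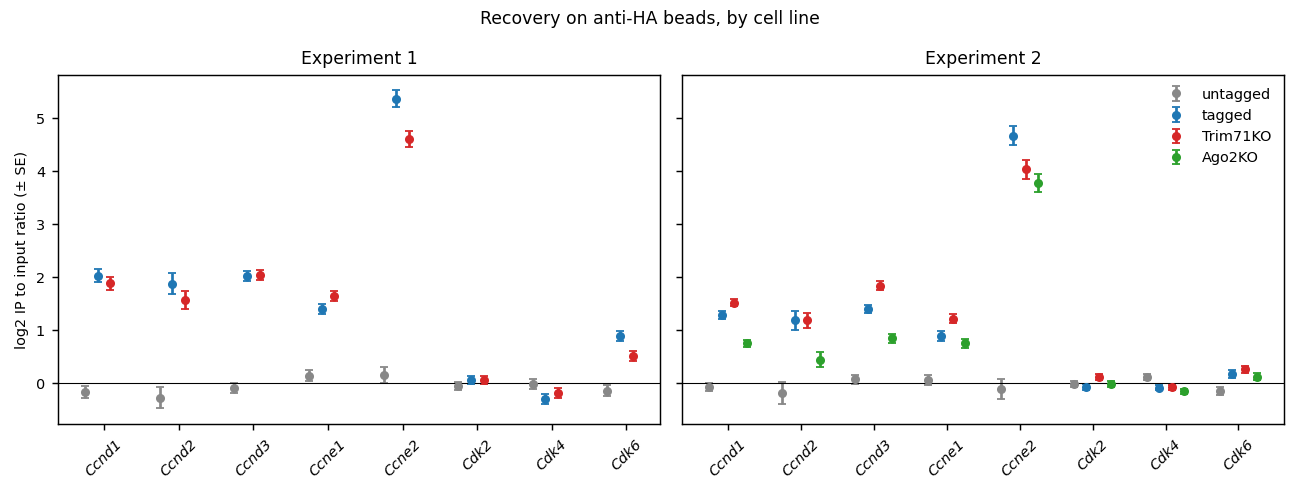
Fitted log2 IP to input ratio (vertical axis, ± SE from the edgeR fit) of each gene on anti-HA beads in each line, experiment 1 left and experiment 2 right. Ccne2 lies at 5.37 and 4.67 in tagged cells of experiments 1 and 2, the D-type cyclins near 2 and between 1.19 and 1.40, and Cdk2 and Cdk4 near the zero line.

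Beads without a tag gave no call among these genes: in untagged cells 0 of 8 differed between IP and input in either experiment by edgeR, where 12.1% (7.21% higher, 4.9% lower) and 0.728% (0.45% higher, 0.278% lower) of all genes did. DESeq2 also called 0 of 8 in both, and 0 and 1 of 8 had an unadjusted p under 0.05. In experiment 1 this rests on the scaling: with library size alone, which moved the median of all genes from −0.03 to −0.42, 7 of 8 were called, Ccne1 changing from 0.15 to −0.25, and with only the 2 groups in the fit 2 of 8 were called. Between tagged and untagged input 1 of 8 differed in experiment 1 (10.6% of all genes, 5.69% higher and 4.87% lower), Ccne2 at 16.9 to 20.2 CPM against 9.25 to 10.7 CPM (0.85 ± 0.15, edgeR adjusted p = 0.000808). In experiment 2 edgeR called 0 of the 7 tested (1.39% of all genes, 0.809% higher and 0.581% lower), with 0 at an unadjusted p under 0.05 and 0 by DESeq2, and Ccne2 changed by 0.07 ± 0.18.

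Around the 8 genes, the other parts of the same pathway were recovered unevenly. The counts below stand beside 28.1% of all genes enriched and 28.8% depleted in experiment 1, and 18.9% and 8.77% in experiment 2. Of the pocket proteins and E2F factors 10 of 13 were enriched and none depleted in experiment 1 (median 2.06) and 9 of 13 in experiment 2 (median 1.17). Among them Rbl2, a pocket protein that restrains E2F targets, had 5.79 ± 0.21 and 4.38 ± 0.27 (edgeR adjusted p = 1.15e-16 and 1.13e-12), and E2f2, an activating E2F, had 5.54 ± 0.16 and 4.05 ± 0.29 (edgeR adjusted p = 4.44e-18 and 1.1e-11). Of the CDK inhibitors 3 of 7 were enriched and 2 depleted in experiment 1 and 2 of 7 were enriched in experiment 2. Cdkn1a, which encodes the inhibitor p21, had 5.84 ± 0.14 and 4.65 ± 0.21 (edgeR adjusted p = 3.33e-19 and 5.37e-15), and Cdkn1b, which encodes p27, had 2.08 ± 0.14 and 1.14 ± 0.11 (edgeR adjusted p = 1.07e-11 and 3.18e-09).

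Of the genes for kinase activation and cyclin turnover 7 of 15 were enriched and 6 depleted in experiment 1, and 7 enriched and 1 depleted in experiment 2. Wee1, the kinase that holds cyclin-dependent kinases inactive, had 3.20 ± 0.16 and 2.65 ± 0.15 (edgeR adjusted p = 2.65e-14 and 2.92e-13), and Fbxw7, the ubiquitin ligase subunit that marks cyclin E for destruction, had 1.98 ± 0.15 and 1.10 ± 0.14 (edgeR adjusted p = 3.68e-11 and 4.19e-07). Of the replication genes driven by E2F 3 of 16 were enriched and 9 had a lower ratio in tagged than in untagged cells in experiment 1 (median −0.33), against 4 and 1 in experiment 2 (median 0.06). On beads without a tag 7 of these 16 were higher in IP than in input in experiment 1 and none lower (median 0.23, all genes −0.03). There 7.21% of all genes were higher and 4.9% lower. Mcm4, a subunit of the replicative helicase, had a lower ratio by edgeR in experiment 1 (−1.06 ± 0.14, adjusted p = 1.33e-06), whereas Cdc6, a helicase loader, was enriched in both (1.29 ± 0.13 and 0.86 ± 0.12, edgeR adjusted p = 1.64e-08 and 1.54e-06). Of the 6 A- and B-type cyclins and Cdk1 tested, 2 were enriched in each experiment and 1 had a lower ratio in tagged cells in experiment 1, Ccnb2 (−0.93 ± 0.13, edgeR adjusted p = 1.54e-06). Ccnb2 was itself recovered on beads without a tag in that experiment, at 276 CPM in untagged IP against 122 CPM in untagged input (1.18 ± 0.09, edgeR adjusted p = 1.09e-09).

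The next comparison asked how input levels differed in cells labelled Trim71KO. Cdk6 was higher in both experiments. Cyclin D2 was higher in experiment 1, and its higher level in experiment 2 was not tested. Cyclins E1 and E2 stood at 0.506 and 0.519 of the tagged level in experiment 1 and were not called in experiment 2. Cyclin D1 was higher in experiment 2. In experiment 1, 6 of 8 genes were called (2 higher, 4 lower), where 34% of all genes were, and in experiment 2, 3 of the 7 tested were called, all higher, where 27.2% of all genes were. The same libraries also differed in cell type markers. In experiment 1 the embryonic stem cell markers summed to 8511 to 8893 CPM against 7270 to 7974 CPM in tagged input. In experiment 2 they summed to 8880 to 9176 against 8444 to 8667 CPM. The summed level of 6 primitive endoderm markers was 13.7 to 16.1 CPM in Trim71KO input against 60.7 to 78.1 CPM in tagged input of experiment 1, and 7.99 to 10.1 against 22.5 to 24.5 CPM in experiment 2, with 0 markers at the floor of 3 counts. The 3 fibroblast markers in the table, of 6 listed, summed to 76.1 to 81.9 against 34.4 to 36.1 CPM in experiment 1 and 61.2 to 65.6 against 59.5 to 62.6 CPM in experiment 2. Mesoderm markers (2 of 4 in the table of experiment 1, 3 of 4 in that of experiment 2) summed to 7.51 to 9.48 against 4.46 to 5.34 CPM in experiment 1 and to 12.2 to 15.2 against 11.1 to 12.8 CPM in experiment 2. The 4 neural markers overlapped between the groups in both experiments. Their part in the results on input RNA was not tested, and fewer cells of a type and less RNA per cell cannot be told apart in these bulk samples.

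Ccnd2 stood at 24.2, 21.4 and 18.4 CPM in Trim71KO input of experiment 1 and at 8.06, 5.68 and 7.36 CPM in tagged input. The ranges were well apart, a change of 1.60 ± 0.19 (3.03-fold, edgeR adjusted p = 1.44e-06). In experiment 2 it stood at 25.1, 24.9 and 17.8 CPM against 5.62, 4.54 and 5.47 CPM, a difference of 2.11 ± 0.17 given without a test because the tagged libraries served to choose the gene. Cdk6, its kinase partner, stood at 50.7, 50.5 and 47.0 CPM against 39.4, 34.7 and 36.2 CPM in experiment 1 (0.43 ± 0.10, edgeR adjusted p = 0.00152). Its experiment 2 values were 57.9, 58.9 and 61.8 CPM against 33.1, 30.2 and 29.5 CPM (0.94 ± 0.07, edgeR adjusted p = 1.84e-10). Neither pair of groups overlapped, and the call held in every fit that left out a library. Over the 21 input libraries Ccnd2 and Cdk6 had a Pearson correlation of 0.83, the highest of Ccnd2 with any of the other 7 genes. The correlation used log2 CPM minus the mean of the tagged input of each library's own experiment. It is given as a description since libraries of a line share their cells. The 21 libraries also include those from which Ccnd2 was chosen. The value does not set partners apart from other pairs. Among D-type cyclins and their kinases, Ccnd2 with Cdk4 had −0.11, Ccnd1 with Cdk6 0.50 and Ccnd3 with Cdk6 −0.52. Ccne1 with Cdk4, which are not partners, had 0.84.

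Ccne1 stood at 76.95, 72.3 and 68.1 CPM in Trim71KO input and 133, 149 and 147 CPM in tagged input of experiment 1, without overlap, a fall of 0.98 on the log2 scale (SE 0.10, edgeR adjusted p = 1.17e-07). In experiment 2 the values were 82.6, 88.3 and 70.3 CPM against 93.3, 93.8 and 91.5 CPM, still without overlap but with −0.21 ± 0.09 not past the threshold (edgeR adjusted p = 0.095). Ccne2 stood at 9.29, 9.25 and 9.47 CPM against 20.2, 16.97 and 16.9 CPM in experiment 1 (−0.95 ± 0.15, edgeR adjusted p = 3.85e-05). Untagged input of that experiment held 9.25 to 10.7 CPM, so the Trim71KO level overlapped untagged cells and the tagged level did not. In experiment 2 Ccne2 held 19.4, 16.98 and 17.03 CPM against 15.5, 15.8 and 15.5 CPM (0.19 ± 0.18, edgeR adjusted p = 0.477).

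Ccnd1 stood at 102, 95.0 and 89.4 CPM against 128, 108 and 114 CPM in experiment 1 (−0.29 ± 0.12, edgeR adjusted p = 0.0639) and at 135, 138 and 131 CPM against 92.5, 93.0 and 93.3 CPM in experiment 2 (0.54 ± 0.07, edgeR adjusted p = 3.26e-06). The groups did not overlap in either experiment, lower in the first and higher in the second. Ccnd3 and Cdk4 fell slightly in experiment 1, by 0.25 (SE 0.09, edgeR adjusted p = 0.0442) and 0.34 (SE 0.09, edgeR adjusted p = 0.0059) on the log2 scale, and had −0.17 ± 0.08 (edgeR adjusted p = 0.129) and −0.02 ± 0.06 (edgeR adjusted p = 0.859) in experiment 2. The Cdk4 call was lost without the second tagged input library (−0.26), and the Ccnd3 call held only when the first tagged input library was the one left out, with values from −0.30 to −0.22 over the 6 fits, and was lost with library size alone (−0.20). Cdk2 had 0.18 ± 0.08 (edgeR adjusted p = 0.0654) and 0.23 ± 0.06 (edgeR adjusted p = 0.00382), the latter lost with library size alone (0.16).

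Among the neighbouring pathway genes in experiment 1, 9 of 15 for kinase activation and cyclin turnover and 8 of 16 replication genes were lower in Trim71KO input, with 1 and none higher, where 17.4% of all genes were lower and 16.5% higher. Cks2, a kinase subunit, fell by 0.76 on the log2 scale (SE 0.10, edgeR adjusted p = 4.61e-06), and Cdc6, the helicase loader, by 0.51 (SE 0.10, edgeR adjusted p = 0.000231). Cdkn1a rose by 1.04 ± 0.10 (edgeR adjusted p = 3.45e-08), one of 3 CDK inhibitors of 7 that were higher, and Cdkn1c, which encodes p57, was the 1 of 7 that was lower (−0.72 ± 0.16, edgeR adjusted p = 0.00142). In experiment 2, 2 of 15 and 2 of 16 were lower and 1 higher in each list, where 13.7% of all genes were lower and 13.5% higher, and 1 of 7 CDK inhibitors was higher and none lower (median 0.04). There Rbl1, a pocket protein, rose by 0.42 ± 0.09 (edgeR adjusted p = 0.000658) after 0.63 ± 0.12 (edgeR adjusted p = 0.000298) in experiment 1, and E2f5 fell by 0.35 (SE 0.11, edgeR adjusted p = 0.0176) after a fall of 0.46 (SE 0.11, edgeR adjusted p = 0.00274).

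In Ago2KO input of experiment 2, the comparison that chose Ccnd2, values are descriptions only. Ccnd2 stood at 21.6, 21.4 and 19.9 CPM against 5.62, 4.54 and 5.47 CPM in tagged input, a 4.01-fold difference (2.00 ± 0.17). Ccnd1 stood at 161, 159 and 156 CPM against 92.5, 93.0 and 93.3 CPM (0.77 ± 0.07), and Cdk6 at 41.6, 38.2 and 37.0 CPM against 33.1, 30.2 and 29.5 CPM (0.33 ± 0.07). The remaining differences were 0.22 or smaller. In all 3 of 8 were past the threshold, where 6.96% of all genes were (4.38% higher, 2.57% lower), and nothing is read from that count. The embryonic stem cell markers summed to 8912 to 9061 CPM in Ago2KO input against 8444 to 8667 CPM in tagged input. The primitive endoderm markers summed to 10.4 to 11.7 CPM in Ago2KO input against 22.5 to 24.5 CPM in tagged input. The neural markers summed to 105.5 to 116 against 89.0 to 98.1 CPM, the fibroblast markers to 47.6 to 54.5 against 59.5 to 62.6 CPM and the mesoderm markers to 12.4 to 13.2 against 11.1 to 12.8 CPM. Their part in these differences was not tested.

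**Figure D3:**
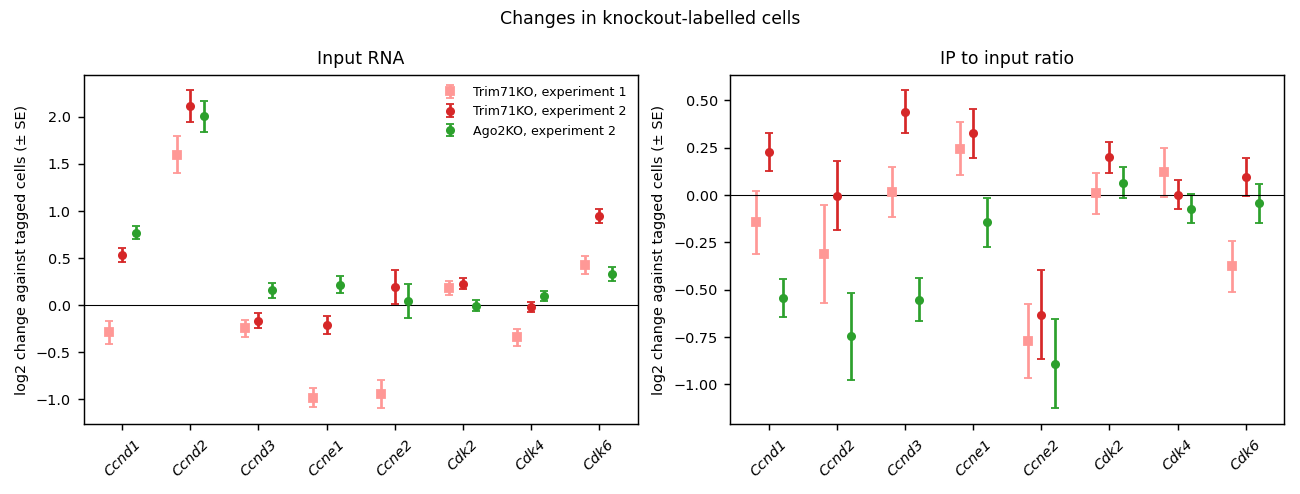
Log2 change against tagged cells (± SE) of each gene in input RNA (left) and in the IP to input ratio (right), for Trim71KO cells of both experiments and Ago2KO cells. In input RNA Ccnd2 lies between 1.60 and 2.11 in all 3 comparisons, and in the ratio the 3 D-type cyclins lie between −0.54 and −0.75 in Ago2KO cells.

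The 2 knockout-labelled lines of experiment 2 were also compared directly, since both share the tagged libraries as control. Trim71KO input was lower than Ago2KO input for Ccnd1 (−0.24 ± 0.07, edgeR adjusted p = 0.0151), Ccnd3 (−0.32 ± 0.08, edgeR adjusted p = 0.00306) and Ccne1 (−0.43 ± 0.09, edgeR adjusted p = 0.000843). It was higher for Cdk2 (0.23 ± 0.06, edgeR adjusted p = 0.00314) and Cdk6 (0.61 ± 0.07, edgeR adjusted p = 2.45e-07). Thus 5 of the 7 genes tested differed, where 28.4% of all genes did. The 2 lines had like Ccnd2 levels, at 22.6 ± 4.17 and 21.0 ± 0.960 CPM (SD, n = 3), with overlapping ranges. The Ccnd1 call was lost without the first (−0.22) or the third (−0.21) Trim71KO library or the first (−0.21) or second (−0.20) Ago2KO library.

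The next question was whether recovery with Tnrc6a depended on Ago2. Cyclins D1, D3 and E2 were recovered less well relative to input in Ago2KO cells, and Ccne1 and the kinases were not called. Of the 7 genes tested, 3 had a lower IP to input ratio in Ago2KO than in tagged cells and none a higher one, where 4.16% of all genes were called, 3.77% lower and 0.384% higher. Ccnd1 stood at 251, 223 and 211 CPM in tagged IP and 293, 252 and 256 CPM in Ago2KO IP, while its input rose as above. Its IP level was thus higher and its ratio lower, by 0.54 on the log2 scale (SE 0.10, edgeR adjusted p = 0.00132). Input rose more (0.77) than IP (0.23), so the lower Ccnd1 ratio is not a lower amount on the beads. The Ago2-dependent ratios use the input libraries of the comparison that chose Ccnd2 and are not independent of it. Ccnd3 stood at 1236, 1083 and 962 CPM in tagged IP and 954, 782 and 761 CPM in Ago2KO IP, with input at 428, 418 and 399 CPM and 473, 464 and 451 CPM. IP was lower and input higher, without overlap, and the ratio fell by 0.55 (SE 0.11, edgeR adjusted p = 0.00298). Both calls held in all 12 fits that left out a library.

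Ccnd2 had a like difference of −0.75 ± 0.23, given without a test, with IP at 14.5, 12.3 and 9.26 CPM in tagged cells and 28.9, 31.8 and 25.0 CPM in Ago2KO cells. Ccne2 stood at 301, 181 and 181 CPM in Ago2KO IP against 533, 358 and 302 CPM in tagged IP, the highest Ago2KO library lying just below the lowest tagged one, and its ratio fell by 0.89 (SE 0.24, edgeR adjusted p = 0.0258). In both groups the highest Ccne2 value came from the library with the most Tnrc6a RNA (31190 against 14790 and 17220 CPM in Ago2KO IP, and 24220 against 12950 and 17190 CPM in tagged IP), whose part in the result was not tested. Without the first tagged IP library the value was −0.63 (edgeR adjusted p = 0.0999), and without the first Ago2KO IP library −1.18 (edgeR adjusted p = 0.00014). The Ccne2 call held in only 3 of the 12 fits, those without the second or the third tagged IP or the first Ago2KO IP library, with values from −1.18 to −0.63. The 9 others that ended it were those without any 1 of the 6 inputs, the first tagged IP or the second or the third Ago2KO IP library, and a fit of only the groups compared ended it too.

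In Ago2KO cells the cyclin mRNAs were still above input on the beads. Fitted IP to input ratios in Ago2KO cells were 13.7-fold for Ccne2, 1.80-fold for Ccnd3, 1.68-fold for Ccnd1 and for Ccne1, and 1.36-fold for Ccnd2, each with the IP range above the input range. The same ratios in tagged cells were 25.5-fold, 2.64-fold, 2.46-fold, 1.86-fold and 2.28-fold. The Ago2-dependent change was not called for Ccne1 (−0.14 ± 0.13, edgeR adjusted p = 0.733), nor for Cdk2 (0.06 ± 0.08, edgeR adjusted p = 0.842), Cdk4 (−0.07 ± 0.08, edgeR adjusted p = 0.80) or Cdk6 (−0.04 ± 0.10, edgeR adjusted p = 0.928). Of the pathway lists, 1 of 13 pocket and E2F genes was lower, E2f5 (−1.01 ± 0.14, edgeR adjusted p = 5.43e-05), 1 of 15 activation and turnover genes, Skp2, a ubiquitin ligase subunit for p27 (−0.56 ± 0.09, edgeR adjusted p = 0.000133), and 1 of 16 replication genes, Cdc6 (−0.51 ± 0.12, edgeR adjusted p = 0.00882).

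**Figure D4:**
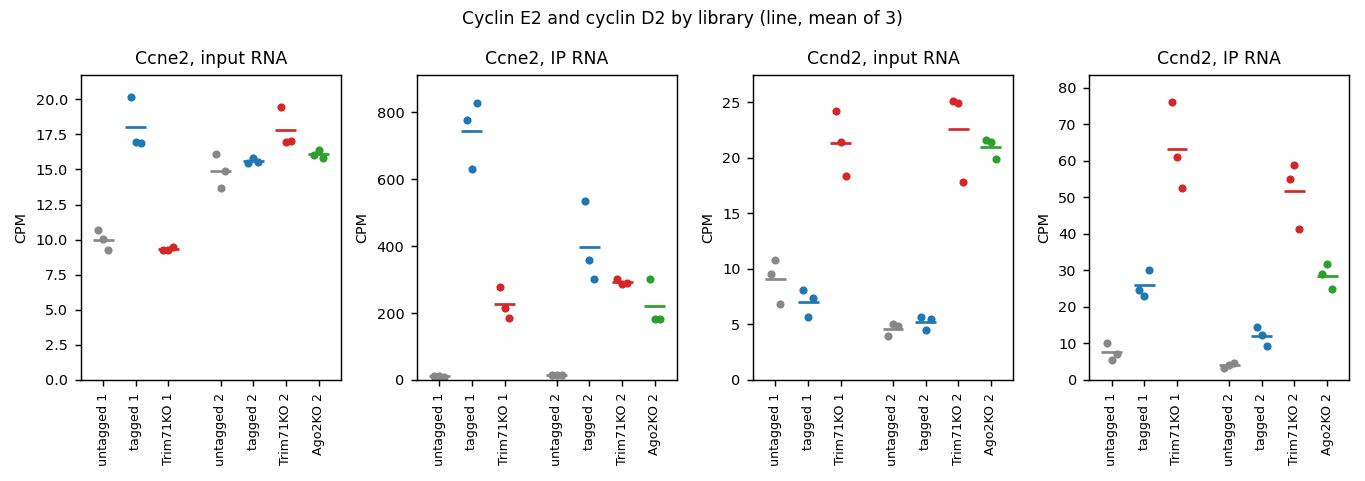
Cyclin E2 and cyclin D2 in input and IP RNA, in CPM on linear axes from 0, 1 point per library and a line at the mean of 3, by line and experiment. Ccne2 IP is at 9.12 to 14.7 CPM in untagged cells and from 181 CPM upward in every tagged line, whereas its input stays between 9.25 and 20.2 CPM.

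Recovery in Trim71KO cells was compared in the same way. In experiment 1, 1 of 8 genes had a lower ratio than in tagged cells, where 3.74% of all genes were called (3.47% lower, 0.272% higher), and in experiment 2, 1 of the 7 tested had a higher ratio, where 1.49% were called (0.738% lower, 0.753% higher). The gene of experiment 1 was Ccne2, whose Trim71KO IP libraries held 279, 216 and 186 CPM against 777, 630 and 828 CPM in tagged IP. The groups were far apart, and since input was also lower, the ratio changed by −0.77 ± 0.20 (edgeR adjusted p = 0.0238). That call held in 3 of 12 fits, those without the first tagged input, the second tagged IP or the first Trim71KO IP library (−0.76, −0.88 and −0.88), and it was lost without any 1 of the other 9, with values from −0.74 to −0.55. Library size alone and the fit of only the groups compared ended it as well. In experiment 2 the IP held 302, 287 and 290 CPM in Trim71KO and 533, 358 and 302 CPM in tagged cells, and the ratio had a difference of −0.63 ± 0.24 that was not called (edgeR adjusted p = 0.184). It was −0.37 without the first tagged IP library and −0.83 without the third, and not called in any of the 12 fits.

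The gene of experiment 2 was Ccnd3, at 1315, 1266 and 1388 CPM in Trim71KO IP against 1236, 1083 and 962 CPM in tagged IP. The IP ranges were apart while input was slightly lower, giving 0.44 ± 0.11 (edgeR adjusted p = 0.0454). Only the fit without the first tagged IP library kept the call (0.53), the other 11 giving 0.32 to 0.47. RLE size factors, no filter and a fit of only the groups compared also ended it, and in experiment 1 the value was 0.02 ± 0.13 (edgeR adjusted p = 0.973). Of the neighbouring genes, E2f3 had the lower ratio in both experiments (−1.46 ± 0.17 and −1.01 ± 0.22, edgeR adjusted p = 3.5e-06 and 0.0178), among 5 of 13 pocket and E2F genes lower in experiment 1 and 1 of 13 in experiment 2.

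Since the 2 lines share their tagged controls, the difference between them was tested directly. The IP to input ratio was higher in Trim71KO than in Ago2KO cells for Ccnd1 (0.77 ± 0.10, edgeR adjusted p = 6.56e-06), Ccnd3 (0.99 ± 0.11, edgeR adjusted p = 7.25e-07) and Ccne1 (0.47 ± 0.13, edgeR adjusted p = 0.0159), 3 of the 7 tested, where 8.94% of all genes were higher and 2.86% lower. For Ccne1 the IP ranges overlapped, at 184, 194 and 184 CPM in Trim71KO and 203, 177 and 166 CPM in Ago2KO cells. Its Trim71KO input was lower by 0.43, so its higher ratio goes with input and not with more RNA on the beads. Ccnd1 and Ccnd3 IP averaged 387 and 1323 CPM in Trim71KO and 267 and 832 CPM in Ago2KO cells. Ccnd2 had 0.74 ± 0.20 without a test. For Ccne2 the difference was 0.26 ± 0.24 (edgeR adjusted p = 0.559) and was not called. Leaving out a library moved it between 0.09 (without the second Ago2KO IP library) and 0.55 (without the first, edgeR adjusted p = 0.0506). The Ccne1 call was lost without the third Trim71KO input (0.38), the second Ago2KO input (0.41), the second Trim71KO IP (0.44), or the second (0.41) or the third (0.40) Ago2KO IP library.

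The amount of each mRNA on the beads, without division by input, followed both changes. In Trim71KO IP of experiment 1, 1 of 8 genes was higher and 3 lower than in tagged IP, where 14.3% and 21.1% of all genes were (35.4% in all). Ccne2 fell by 1.72 on the log2 scale (SE 0.13, edgeR adjusted p = 7.6e-10), Ccne1 by 0.74 (SE 0.10, edgeR adjusted p = 3.62e-06) and Ccnd1 by 0.43 (SE 0.12, edgeR adjusted p = 0.00582), and Ccnd2 rose by 1.29 ± 0.17 (edgeR adjusted p = 4.5e-06). The Ccnd1 call was lost without the second (−0.31) or the third (−0.21) Trim71KO IP library and with library size alone (−0.28) or only the groups compared (−0.36). In experiment 2, 4 of the 7 tested were higher and 1 lower, where 17.1% and 16.2% of all genes were (33.4% in all). Cdk6 rose by 1.04 ± 0.07 (edgeR adjusted p = 3.39e-11), Ccnd1 by 0.76 ± 0.07 (edgeR adjusted p = 7.68e-09), Cdk2 by 0.43 ± 0.06 (edgeR adjusted p = 2.83e-06) and Ccnd3 by 0.27 ± 0.08 (edgeR adjusted p = 0.009). Ccne2 fell by 0.44 (SE 0.15, edgeR adjusted p = 0.0248), a call lost by DESeq2 and without the first tagged IP (−0.18) or the second (−0.45) or the third (−0.43) Trim71KO IP library, and the Ccnd3 call was lost without the third tagged IP library (0.16). A fit of only the groups compared ended both calls.

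In Ago2KO IP, 2 of the 7 tested were higher and 2 lower than in tagged IP, where 7.04% and 9.32% of all genes were (16.4% in all). Ccne2 fell by 0.85 (SE 0.15, edgeR adjusted p = 0.000203) and Ccnd3 by 0.39 (SE 0.08, edgeR adjusted p = 0.000793), and Cdk6 rose by 0.29 ± 0.07 (edgeR adjusted p = 0.00688) and Ccnd1 by 0.23 ± 0.07 (edgeR adjusted p = 0.0284). Fitted on these 2 groups alone, 0 of the 7 were called. The Cdk6 call was lost without the third tagged IP library (0.17) and the Ccnd1 call without the second (0.21) or the third (0.13) tagged IP or the first (0.16) or the third (0.23) Ago2KO IP library, and with RLE factors (0.21) or no filter (0.20).

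For each D-type cyclin, the genes with the most similar input pattern were named from 12446 genes by Pearson correlation over the 21 input libraries. The correlation used log2 CPM minus the mean of the tagged input of each library's own experiment. The libraries share cell lines and experiments, and they include those from which Ccnd2 was chosen. Ccnd1 was most like LTO1 (0.96), which overlaps it, Mycn (0.96), a Myc family transcription factor, and Tmem64 (0.94). Mycn averaged 112 CPM in tagged input of experiment 2, 149 CPM in Trim71KO and 169 CPM in Ago2KO input. Ccnd2 was most like Dpysl3 (0.95), Fgf17 (0.95), a fibroblast growth factor, and Pla2g4e (0.94). Fgf17 averaged 14.2, 28.6 and 23.9 CPM in the same 3 groups. Ccnd3 was most like Pex19 (0.95), a peroxisome import factor, Srxn1 (0.92) and Plk4 (0.91), the kinase that starts centriole duplication, and Pex19 averaged 77.9, 60.0 and 94.9 CPM.

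Promoter sequence was available in RefSeq (GRCm38.p6, 250 bases before to 50 after the start) for 5 of the 8 genes. It was searched on both strands for CACGTG, the E-box bound by Myc proteins, and TTTNNCGC, an E2F-like motif, because Mycn was among the genes most like Ccnd1 and because E2F factors are the pathway's output. The windows of Cdk4 and Cdk6 are shown since these are the kinases that pair with D-type cyclins. Motifs are in capitals, and a match is a description of letters only.
Cdk4, chr10:127063285-127063584, plus strand: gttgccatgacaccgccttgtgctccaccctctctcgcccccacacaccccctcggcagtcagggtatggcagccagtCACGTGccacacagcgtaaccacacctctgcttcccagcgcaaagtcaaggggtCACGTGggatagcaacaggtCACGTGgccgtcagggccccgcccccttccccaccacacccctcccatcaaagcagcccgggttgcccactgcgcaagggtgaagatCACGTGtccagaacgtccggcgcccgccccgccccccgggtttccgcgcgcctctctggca
Cdk6, chr5:3343643-3343942, plus strand: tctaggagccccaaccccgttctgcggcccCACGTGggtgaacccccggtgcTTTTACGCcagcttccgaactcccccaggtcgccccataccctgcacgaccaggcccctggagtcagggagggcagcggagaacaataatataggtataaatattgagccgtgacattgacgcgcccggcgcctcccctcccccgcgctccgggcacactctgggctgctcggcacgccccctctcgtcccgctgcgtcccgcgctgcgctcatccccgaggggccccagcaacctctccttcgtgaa
The Cdk4 window holds 4 CACGTG, and the Cdk6 window holds 1 CACGTG and 1 TTTNNCGC, which do not overlap. Of 32851 RefSeq windows of this length, 7.15% hold at least 1 CACGTG, 0.0244% hold at least 4, and 5.17% hold at least 1 TTTNNCGC. Cdk2 has 1 TTTNNCGC and no CACGTG, and the windows of Ccnd3 and Ccne1 have neither.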

How the data were processed

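RNA from lysates (input) and from anti-HA beads (IP) of mouse embryonic stem cells was sequenced in 42 libraries, 3 in each of 14 groups, in 2 experiments with a table each. The authors deposited raw read counts per gene and RPKM values (reads scaled by gene length and library size) beside them. The submitters' processing notes name bcl2fastq 2.20, STAR 2.7.3a and the builds GRCm38 and mm10. The kit keeps strand, per the labels, but the counting rule, its strand setting and the annotation are not given in the sources used here. Gene positions and sequences are from RefSeq GRCm38.p6.

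Counts were tested with edgeR 4.0.16 (R 4.3.3): TMM scaling, filterByExpr, a mean per group with all libraries of an experiment in 1 fit, glmQLFit and glmQLFTest, and Benjamini-Hochberg adjustment over all genes tested, called under 0.05. SE was taken from the F statistic, as the size of the change over its root. Enrichment is a difference of IP to input ratios between lines, so its p comes from an interaction term. CPM use TMM library sizes, and the error of a group mean is the SD. On simulated counts of the Trim71-dependent comparison the fit recovered 80 of 100 genes changed 2-fold in each experiment, and 90 and 92 of 100 changed 4-fold, with 3.41% and 5.49% false calls. In the simulation each gene had the same mean in every group before the change, and libraries varied independently. Real group means differ and outlying libraries were not simulated, so these rates need not hold for the real counts.

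The genes, pathway lists and comparisons were chosen with earlier results of these data known. Ccnd2 was chosen from Ago2KO input, so comparisons of it that use tagged or Ago2KO cells of experiment 2 carry no p-value. Named genes outside the 8 are, per list and comparison, up to 2 in each direction that were called, did not overlap between groups and had a mean log2 CPM of at least 2. Tnrc6a, Trim71 and Ago2 were named as checks, and for each D-type cyclin the 3 genes with the most similar input pattern. The text gives some of these. By the rule used, replicate numbers showed no pairing of libraries: in 0 of 25 pairs of groups did all 3 same-numbered correlations of deviations exceed 0.1 (range −0.121 to 0.261). Input and IP came from the same dishes, so this rule cannot exclude a weaker pairing, and the main fit does not use one. Replicates of a group differed by more than sampling noise (chi-square per gene from 2.87 to 64.1 over 42 pairs). Alternatives were RLE size factors, library size alone, no filter, only the groups compared, replicate blocks, DESeq2 1.42.0 and each library left out. The deposited RPKM served as an alternative for the order of levels per length, added after the data were seen.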

Additional observations from a re-analysis of the deposited data

Results flagged for a closer look

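The 2 knockout-labelled lines of experiment 2 differed from each other by a test of the difference itself (edgeR's quasi-likelihood test, Trim71KO minus Ago2KO, log2). For the IP to input ratio the differences were 0.771 for Ccnd1, 0.992 for Ccnd3 and 0.469 for Ccne1, all higher in Trim71KO cells. For input RNA they were −0.236 for Ccnd1, −0.323 for Ccnd3 and −0.427 for Ccne1, lower in Trim71KO cells, and 0.233 for Cdk2 and 0.614 for Cdk6, higher in Trim71KO cells.

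Some changes in Trim71KO against tagged cells ran in opposite directions in the 2 experiments with every library of one group above or below the other, and the difference between experiments was not tested. Ccnd1 input RNA changed by −0.289 in experiment 1 and 0.536 in experiment 2. Ccne2 input RNA changed by −0.947 and 0.191. Ccnd3 IP RNA changed by −0.229 and 0.275. Some of these changes were not called by edgeR. They were Ccnd1 in experiment 1 (edgeR adjusted p = 0.0639), Ccne2 in experiment 2 (edgeR adjusted p = 0.477) and Ccnd3 in experiment 1 (edgeR adjusted p = 0.0576). The Ccnd3 call of experiment 2 was lost without the third tagged IP library.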

How the results depend on the processing

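Of 1984 recomputed values of the 8 genes, 1858 kept their direction and side of the threshold, 89 lost a call, 32 gained one, 4 moved without a test and 1 reversed: Ccne1 in untagged IP against input of experiment 1, −0.247 with library size alone. Library size alone gave 10201 called genes there (7 of the 8) in place of 2273, only the groups compared 4612 (2 of the 8), and each left-out library 1370 to 1818. In experiment 2 that comparison went from 144 to 574 (library size alone) and 283 (DESeq2), or 70 to 220 with a library left out. Trim71-dependent enrichment in experiment 1 kept 0 of the 8 with library size alone and with only the groups compared, and 0 to 2 with a library left out (339 to 1435 genes, 703 in the full fit). In experiment 2 it kept 0 with RLE factors, no filter and only the groups compared, and 0 to 2 with a library left out. Genes called there were 295, then 489 (library size alone), 136 (only the groups compared), 548 (DESeq2) and 98 to 562 (a library left out).

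With only the groups compared, 5 of the 7 were called for Trim71KO input and 3 for Trim71KO IP of experiment 2. The full fit called 3 and 5 there, beside 27.2% and 33.4% of all genes. The shares over all genes in the narrower fits are not given here, so nothing is read from those counts. With only the groups compared, Ago2KO IP had 0 of 7 called (1582 genes against 3236). Ago2KO input, the comparison that chose Ccnd2, had 5 of 8 past the threshold in that setting (2481 genes against 1376). Nothing is read from that count either. Tagged against untagged input of experiment 2 gave 497 genes against 275 in the same setting. With a library left out, Ago2KO IP gave 2 to 4 of 7, Ago2KO input 774 to 922 genes, and tagged against untagged input 722 to 3053 genes in experiment 1 (1983 in the full fit, the lowest without the second and the highest without the first tagged library) and 154 to 195 in experiment 2.

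The replicate block within fraction gave 2 of 7 genes (Ccne2 beside Ccnd3) and 470 genes for Trim71-dependent enrichment in experiment 2, and 1146 and 423 genes for untagged IP in experiments 1 and 2. The replicate block by culture gave 522 and 266 genes in the 2 comparisons of experiment 2. No other count moved by over 1.5 times under a block. The check on replicate numbers cannot settle whether a block fits these libraries, so nothing is concluded from calls that changed there.

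Library size alone changed the share of calls that were higher from 68.4% to 36.5% for tag-specific enrichment in experiment 2, from 50.5% to 75.7% and from 7.25% to 24.6% for Trim71-dependent enrichment in experiments 2 and 1, and from 9.25% to 26.1% for Ago2-dependent enrichment. It also changed it from 59.6% to 4.88% and from 61.8% to 19.2% for untagged IP in experiments 1 and 2, from 40.5% to 63.3% for Trim71KO IP in experiment 1, from 43% to 61.5% for Ago2KO IP, from 63% to 51.1% for Ago2KO input, from 49.6% to 34.6% for Trim71KO input in experiment 2 and from 53.9% to 35.3% for tagged against untagged input in experiment 1. RLE factors gave 38.6% for Trim71-dependent enrichment in experiment 2. The order of levels per length was the same in 42 of 42 group and setting pairs, the deposited RPKM included. These settings rescale whole libraries, and no other gene lengths were tried. The order within a library could therefore hardly change, and the agreement is not a check of it. Causes of these changes were not tested. Ccnd2 and Ccne2 rest on the fewest counts in input, which limits the precision of their ratios.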
